A study of Mus musculus with 26 samples.

Results

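Mettl3 was knocked down in mouse J1 embryonic stem cells, and the transcripts of these cells at 4 h were compared with those of cells given a scrambled control. The comparison used the 4 of 26 arrays whose titles name Mettl3 knockdown at 4 h or scramble at 4 h, 2 of each. It was read beside other arrays of the same series: Mettl3 knockdown and scramble at 0 h and at 8 h, Mettl14 knockdown at 4 h, and a repeat set at 0 h in which Mettl3 knockdown has a scramble control of its own, each with 2 arrays. The J1 line carried no engineered allele in any group as far as the labels say, and the labels call the treatment of the scramble arrays wild type. Every group was cultured with serum, leukaemia inhibitory factor and irradiated feeder fibroblasts from mouse embryos, so feeder RNA can be present in every group. The descriptions of the knockdown arrays name short hairpin RNA, while the protocols cover both lentiviral hairpins with puromycin selection and small interfering RNA transfected on 2 occasions. The labels do not settle which of them applies to these arrays. They do not say what the 4 h and 8 h are counted from, nor what the cells were given over that time. For replicate 2 of the repeat scramble the description names 4 h and the other labels name 0 h, which was used.

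METTL3 is the catalytic subunit of the nuclear complex that writes N6-methyladenosine (m6A) on messenger RNA, and METTL14 is its RNA-binding partner, with WTAP and other subunits placing the complex on transcripts. Proteins with a YTH domain bind the mark, and it is known for shortening the life of many transcripts that carry it. In mouse embryonic stem cells it has been studied for its bearing on the turnover of pluripotency and lineage regulators, the question the series asks.

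The protocols list 2 target sequences of 19 bases for Mettl3, shown because they define what was silenced wherever small interfering RNA was used. The capitals mark bases 12 to 18 of the target, which pair with bases 2 to 8 of a guide strand that is its exact complement. Their place in the Mettl3 transcript was not analysed here.
Mettl3 siRNA 1: ggactgcgatgTGATTGTa
Mettl3 siRNA 2: gacgaattatcAATAAGCa

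The deposited values are log2 signals of 41345 probe sets, and replicates of the time course correlated across them at r = 0.9869 to 0.9923. Of 22180 genes with a probe set of their own, the 14787 with the highest mean signal were tested, and below a log2 change ± standard error comes from limma fitted to the 18 time course arrays. A gene passed at a Benjamini-Hochberg adjusted p under 0.05 over all genes tested. The number of arrays, 2 in each group, limits the precision. The titles call them biological replicates, but no label says whether they came from separate experiments. The p-values thus describe a spread among samples that may be less than that between separate experiments. Among the defining genes of the labelled cell type Nanog was bright, at 12.00 and 11.89 in Mettl3 knockdown and 12.79 and 12.78 in scramble. Sox2, Pou5f1, Klf4 and Esrrb, given below, had lower signals. In these bulk samples, fewer cells of a type and less RNA per cell cannot be told apart.

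The targeted transcript was lower in the knockdown. Mettl3 has a single probe set, which it shares with Tox4 in the probe table, and at 4 h it lay at 8.53 and 8.12 in Mettl3 knockdown, against 10.97 and 10.99 in scramble. Both knockdown arrays were below both scramble arrays, a change of -2.65 ± 0.11 to 15.9% of scramble (adjusted p = 1.38e-07 over 41345 probe sets, limma). The separate probe set of Tox4 did not pass, at 9.72 and 9.70 in Mettl3 knockdown and 9.54 and 9.62 in scramble. The shared probe set stood at 26.9% of scramble at 0 h and 16% at 8 h, and the difference between the effects at 4 h and 0 h, -0.76 ± 0.16, did not pass (adjusted p = 0.384). Mettl14 itself lay at 9.01 and 9.01 in Mettl3 knockdown, against 9.23 and 9.19 in scramble and did not pass (-0.20 ± 0.13, adjusted p = 0.277 over the genes tested). Whether the lowered signal of the shared probe set includes Tox4 RNA was not tested.

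Of the 14787 genes, 2863 were higher in Mettl3 knockdown than in scramble at 4 h (19.4%) and 2727 were lower (18.4%), while the median change over all genes was -0.02. At least 2-fold, 308 were higher (2.08%) and 89 were lower (0.602%), so the large changes were mostly rises. When the median of 32 long-lived transcripts was set equal in every array, the split moved to 2033 higher and 3810 lower, with the median of all genes at -0.10. Both knockdown arrays lay above both scramble arrays for 33.4% of the genes and below them for 38.1%. Leaving out any single one of the 4 arrays gave 2202 to 2415 higher and 1925 to 2181 lower genes.

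The largest rise was that of Sema6a. Sema6a, a transmembrane semaphorin of axon guidance, lay at 9.97 and 10.09 in Mettl3 knockdown, against 6.82 and 6.87 in scramble. It was 9.11-fold higher in the knockdown (3.19 ± 0.09, adjusted p = 2.65e-10), with a wide gap between the groups. Thbs1, the matrix glycoprotein thrombospondin 1, lay at 11.07 and 11.08 in Mettl3 knockdown, against 8.32 and 8.31 in scramble, a change of 2.76 ± 0.10 (adjusted p = 1.21e-09). The secreted semaphorin Sema3c had 8.87 and 8.86 in Mettl3 knockdown, against 6.16 and 6.33 in scramble (2.62 ± 0.08). Replicates of each of these 3 genes lay far closer to each other than the groups did. The choice of the largest rises had required groups without overlap, so this separation is no finding. Fgf5, a growth factor that marks the primed epiblast, had 8.57 and 8.80 in Mettl3 knockdown, against 6.02 and 6.20 in scramble, which is 5.96-fold higher (2.58 ± 0.12, adjusted p = 1.54e-08).

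Cysltr1, a receptor for cysteinyl leukotrienes, had 8.195 and 8.13 in Mettl3 knockdown, against 5.59 and 5.47 in scramble. Its scramble signals were below the lowest mean of the genes tested, 6 on the log2 scale, so the gene passed the filter through brighter arrays and the size of its change is uncertain. Colec12, a scavenger receptor, changed by 2.59 ± 0.10, and Wls, the cargo receptor that carries Wnt proteins to the surface, by 2.35 ± 0.10. The phospholipid-binding annexin Anxa3 changed by 2.60 ± 0.07, the glycosyltransferase Galnt3 by 2.37 ± 0.10 and the class I-like gene H2-M2 by 2.58 ± 0.09. Smooth muscle calponin, Cnn1, had 10.42 and 10.37 in Mettl3 knockdown, against 7.87 and 7.87 in scramble (2.53 ± 0.06, adjusted p = 5.7e-11), and transgelin, Tagln, changed by 2.30 ± 0.07. The actin-binding gene Pof1b (2.57 ± 0.13), Fndc3c1 (2.56 ± 0.05) and the intermediate filament gene of neural progenitors, Nes (2.31 ± 0.07), completed the 15. Each of them passed in the same direction at 0 h, at 8 h, in Mettl14 knockdown at 4 h and in the repeat set, with changes of 1.91 to 3.11 at 0 h and 0.46 to 2.10 in the repeat set. The Mettl14 comparison uses the same scramble arrays on which these rises were chosen, so it is no independent repeat. Of all genes 19.3% were higher at 0 h and 20.0% in Mettl14 knockdown at 4 h.

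The 15 largest falls included 4 Zscan4 genes of the 2-cell-like list. Zscan4e, of a telomere-maintenance family that is switched on in bursts in mouse embryonic stem cells, had 8.06 and 7.73 in Mettl3 knockdown, against 10.17 and 10.06 in scramble (-2.22 ± 0.18, adjusted p = 1.41e-06). Its relatives Zscan4b (-2.13 ± 0.25), Zscan4c (-1.93 ± 0.24) and Zscan4d (-1.73 ± 0.17) fell too, though near-identical copies share probes and single members are uncertain. Cubn, an endocytic receptor of the visceral endoderm, had 6.12 and 6.20 in Mettl3 knockdown, against 8.43 and 8.27 in scramble (-2.19 ± 0.11), and the cell adhesion gene Ceacam1 had 9.32 and 9.30 in Mettl3 knockdown, against 11.50 and 11.42 in scramble (-2.15 ± 0.09, adjusted p = 4.38e-09). For each of these genes the knockdown arrays were the low ones without overlap, which the choice of the largest falls had required.

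Among germline genes, Sohlh2, a transcription factor of early germ cells, fell by 1.77, Dmrt1, a regulator of testis and germ cells, by 1.61 and Morc1, which represses transposons in the male germline, by 1.57 on the log2 scale. Kit, the receptor for stem cell factor, had 7.94 and 8.06 in Mettl3 knockdown, against 9.59 and 9.32 in scramble (-1.46 ± 0.10). Tet2, an enzyme that oxidises 5-methylcytosine, had 9.62 and 9.42 in Mettl3 knockdown, against 11.08 and 11.10 in scramble (-1.57 ± 0.11, adjusted p = 3.8e-07). The peptide transporter Slc15a1 changed by -1.74 ± 0.13, the kallikrein Klk1, whose knockdown signals of 5.61 and 5.45 were below 6, by -1.84 ± 0.29, Pramel19 by -1.70 ± 0.25 and the meprin subunit Mep1b by -1.49 ± 0.12. All 15 falls passed in the same direction at 0 h, at 8 h and in Mettl14 knockdown at 4 h, where 19.5% of all genes were lower. The Mettl14 comparison uses the same scramble arrays on which the falls were chosen, so it is no independent repeat. In the repeat set 14 of the 15 falls passed, the exception being Mep1b at -0.21 (adjusted p = 0.203).

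**Figure D1:**
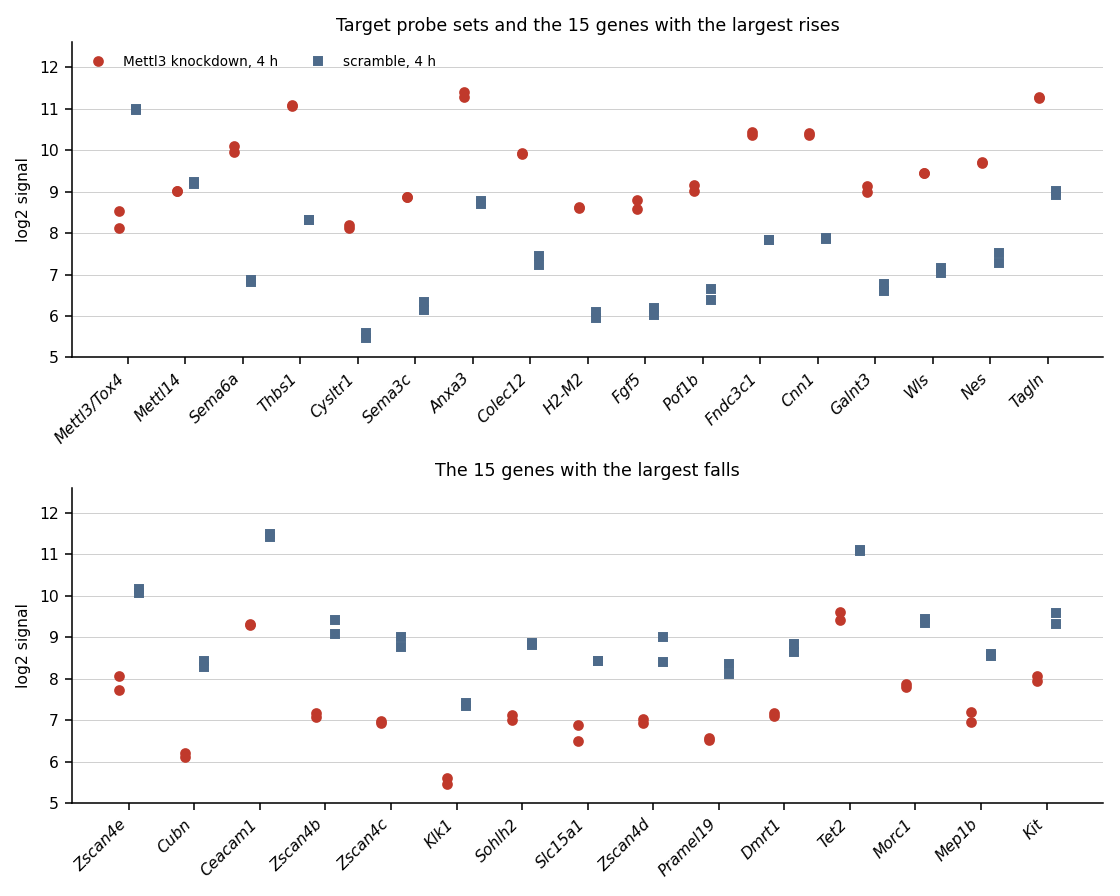
Log2 signal of every array at 4 h for the shared Mettl3 and Tox4 probe set, for Mettl14 and for the 15 largest rises and the 15 largest falls, with Mettl3 knockdown as circles to the left of scramble as squares. The 15 rises and 15 falls were chosen with their 2 circles on 1 side of their 2 squares, so that separation is no finding. The shared probe set was not chosen so and is also separated, and the groups of Mettl14 lie 0.20 apart. The rises run from 2.30 to 3.19, and the falls from -1.46 to -2.22.

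Pluripotency regulators were mostly lower. Their list and those that follow were chosen with earlier results of these data known. Of 31 core and naive pluripotency genes tested, 26 fell and 0 rose, with a median change of -0.68 beside -0.02 over all genes. Of all genes 18.4% were lower and 19.4% higher. Stat3, which carries the signal of leukaemia inhibitory factor to the nucleus, had 10.14 and 10.09 in Mettl3 knockdown, against 11.41 and 11.41 in scramble, 2.45-fold lower in the knockdown (-1.29 ± 0.06, adjusted p = 6.22e-09). Tcl1, an activator of the kinase Akt, had 10.03 and 9.86 in Mettl3 knockdown, against 11.14 and 11.07 in scramble (-1.16 ± 0.06). Of the transcription factors that hold the naive state, Klf4 had 7.81 and 7.67 in Mettl3 knockdown, against 8.82 and 8.83 in scramble (-1.08 ± 0.10, adjusted p = 3.48e-06). Its fall was of the same order as that of Esrrb, at 7.60 and 7.34 in Mettl3 knockdown, against 8.58 and 8.47 in scramble (-1.06 ± 0.08, adjusted p = 1.08e-06). Nanog changed by -0.85 ± 0.05 (adjusted p = 6.47e-08), Tet1, another 5-methylcytosine oxidase, by -0.68 ± 0.04 and Fbxo15, an Oct4 target, by -0.98 ± 0.06.

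The 2 remaining core factors moved least. Pou5f1, which encodes Oct4, had 8.39 and 8.17 in Mettl3 knockdown, against 8.57 and 8.67 in scramble, a change of -0.34 ± 0.11 (adjusted p = 0.0325), and lost its call without replicate 1 or 2 of scramble or replicate 2 of the knockdown (-0.39, -0.29 and -0.23, with adjusted p = 0.0619, 0.168 and 0.237). Sox2 had 10.32 and 10.29 in Mettl3 knockdown, against 10.67 and 10.63 in scramble (-0.34 ± 0.10, adjusted p = 0.0135) and lost its call without replicate 1 of scramble or replicate 2 of the knockdown (-0.32 each, with adjusted p = 0.0736 and 0.07). For both genes the knockdown arrays lay below the scramble arrays, by less than for Nanog.

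Genes of the primed epiblast, the state that follows the naive one, were mostly higher. 10 of 14 rose and 1 fell, beside 19.4% and 18.4% of all genes, with a median of 0.61. Besides Fgf5, the adhesion gene Cdh2, N-cadherin, had 10.13 and 10.23 in Mettl3 knockdown, against 8.85 and 8.82 in scramble (1.34 ± 0.06, adjusted p = 8.61e-09). Pou3f1, which encodes the factor Oct6, had 8.94 and 8.84 in Mettl3 knockdown, against 7.81 and 7.79 in scramble (1.08 ± 0.09), and the transcription factor Sox4 changed by 0.99 ± 0.12. The exception was Dnmt3a, a de novo DNA methyltransferase, which fell by 0.57 (adjusted p = 2.06e-05).

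Lineage markers gave no single direction, and the largest rises on the trophectoderm list were keratins. Of 18 trophectoderm genes 10 rose and 1 fell (median 0.40). Krt8, a keratin of simple epithelia, had 12.67 and 12.62 in Mettl3 knockdown, against 10.48 and 10.43 in scramble, 4.56-fold higher (2.19 ± 0.05, adjusted p = 5.15e-11). Its partner Krt18 had 11.54 and 11.65 in Mettl3 knockdown, against 9.49 and 9.47 in scramble (2.12 ± 0.05, adjusted p = 1.14e-10), and Krt19 changed by 2.02 ± 0.08. Keratins are shared by many epithelia, and the trophectoderm factor Tfap2c went the other way, at 7.99 and 7.94 in Mettl3 knockdown, against 8.96 and 8.86 in scramble (-0.95 ± 0.12). Of 14 neuroectoderm genes 5 rose, among them the neurofilament genes Nefl (2.16 ± 0.08) and Nefm (1.19 ± 0.09, with scramble signals of 5.35 and 5.53, below 6) and the lipid carrier gene Fabp7 (0.97 ± 0.14). The 4 that fell included the microtubule regulator Stmn2 (-0.81 ± 0.05), and the median of the list was 0.00. Of all genes 19.4% rose and 18.4% fell.

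Mesoderm and endoderm genes are given beside the 19.4% higher and 18.4% lower of all genes. Of 12 mesoderm genes 2 rose and 1 fell. Wnt3, a ligand that induces the primitive streak, changed by 1.17 ± 0.09, and Eomes, a streak transcription factor, by 0.43 ± 0.11, which lost its call without replicate 1 of scramble or replicate 1 of the knockdown (0.36 and 0.34, with adjusted p = 0.0581 and 0.0641). The signalling ligand Bmp4 changed by -0.47 ± 0.13 and lost its call without replicate 2 of scramble or replicate 2 of the knockdown (-0.44 and -0.39, with adjusted p = 0.0794 and 0.106). The median of this list was 0.03, and -0.06 with the long-lived transcripts set equal. Of 14 endoderm genes 1 rose and 2 fell. The megalin gene Lrp2 had 10.67 and 10.66 in Mettl3 knockdown, against 9.30 and 9.33 in scramble (1.36 ± 0.05, adjusted p = 1.33e-09), opposite to its partner Cubn, and the laminin chain Lama1 changed by -0.88 ± 0.08.

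Genes of the contractile cytoskeleton rose together. Of 17 smooth muscle and stress fibre genes 15 rose and 0 fell, beside 19.4% and 18.4% of all genes. Their median was 0.97. Beside Cnn1 and Tagln, caldesmon, Cald1, had 9.63 and 9.72 in Mettl3 knockdown, against 7.90 and 7.79 in scramble (1.83 ± 0.06, adjusted p = 1.21e-09). Tropomyosin 1, Tpm1, had 11.26 and 11.22 in Mettl3 knockdown, against 9.99 and 10.03 in scramble (1.23 ± 0.05), and the myosin light chain gene Myl9 changed by 1.63 ± 0.07. Many of these genes are known targets of serum response factor, whose own gene Srf changed by 0.44 ± 0.07 (adjusted p = 0.000385). Whether this factor had a part in their rises was not tested.

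Genes known to respond to the transcriptional co-activators YAP and TAZ were listed together with the co-activators' own genes and others of their pathway. 13 of 15 rose and 0 fell, beside 19.4% and 18.4% of all genes, with a median of 0.67. The phosphatase Ptpn14, which restrains YAP, had 11.13 and 11.13 in Mettl3 knockdown, against 9.31 and 9.37 in scramble (1.79 ± 0.05, adjusted p = 4.79e-10). The receptor kinase Axl changed by 1.70 ± 0.10, the scaffold Amotl1 by 0.95 ± 0.06 and Wwtr1, which encodes TAZ, by 0.92 ± 0.06. In these 4 genes the knockdown arrays were above the scramble arrays, and in Thbs1 the choice of the largest rises had required it.

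The markers of the feeder fibroblasts moved in part with these rises. Of 23 markers with a probe set of their own 19 were bright enough to be tested. Among these 8 rose and 2 fell (median 0.14), beside 19.4% and 18.4% of all genes. Mmp2, a gelatinase, had 10.66 and 10.83 in Mettl3 knockdown, against 9.08 and 9.21 in scramble (1.60 ± 0.08, adjusted p = 1.6e-08), and the follistatin-like gene Fstl1 changed by 1.06 ± 0.05. The collagen chain Col5a1 changed by 0.81 ± 0.12, Sparc, a collagen-binding matrix protein, by 0.42 ± 0.07 and the crosslinking enzyme Loxl1 by 0.40 ± 0.06. The summed linear signal of the list was 13970 and 14080 in Mettl3 knockdown, against 12390 and 12630 in scramble. Its 8 tested collagens had a median of 0.15 with 3 higher and 0 lower. Of the 6 defining markers Dcn, Lum and Postn were among the dim genes left out, and of Col1a1, Col1a2 and Col3a1, 1 passed, with changes of -0.05 to 0.35. The part of the feeders in the rises of cytoskeletal and matrix genes was not tested.

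The insulin-like growth factor system was mostly higher, from binding proteins to receptors and adaptor. 10 of 13 genes rose and 0 fell, beside 19.4% and 18.4% of all genes, with a median of 0.57. Of the secreted binding proteins, Igfbp3, which holds insulin-like growth factors in the medium, had 11.47 and 11.30 in Mettl3 knockdown, against 9.66 and 9.61 in scramble, 3.36-fold higher (1.75 ± 0.08, adjusted p = 8.9e-09). Igfbp2 changed by 0.65 ± 0.06. Of the receptors, Igf1r had 9.94 and 9.96 in Mettl3 knockdown, against 9.26 and 9.05 in scramble (0.80 ± 0.07), and the insulin receptor Insr changed by 0.70 ± 0.07. The adaptor Irs2, which links these receptors to phosphoinositide 3-kinase, had 8.75 and 8.61 in Mettl3 knockdown, against 7.47 and 7.28 in scramble (1.31 ± 0.12, adjusted p = 4.01e-06).

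Other signalling lists were mixed. Of 14 BMP pathway genes 7 rose and 2 fell (median 0.33), beside 19.4% and 18.4% of all genes. The inhibitors of basic helix-loop-helix factors, which BMP signalling induces, were on the higher side, Id2 at 11.06 and 11.03 in Mettl3 knockdown, against 10.17 and 10.12 in scramble (0.90 ± 0.06), with Id1 at 0.62 ± 0.06 and Id3 at 0.70 ± 0.09. The ligand Bmp7 changed by 0.89 ± 0.09 and the receptor Bmpr2 by 0.50 ± 0.07. Of 17 TGF-beta and Nodal genes 5 rose and 2 fell, beside 19.4% and 18.4% of all genes. Lefty2, a secreted inhibitor of Nodal, had 9.42 and 9.33 in Mettl3 knockdown, against 8.08 and 8.01 in scramble (1.33 ± 0.10, adjusted p = 6.67e-07). The ligands Tgfb3 (0.80 ± 0.13) and Nodal (0.40 ± 0.09) and the effector Smad3 (0.39 ± 0.08) also rose, and the activin subunit Inhbb fell (-0.64 ± 0.14).

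FGF-ERK genes split evenly, with 5 of 16 higher and 5 lower, beside 19.4% and 18.4% of all genes. Among the receptors Fgfr1 rose (0.47 ± 0.05) and Fgfr2 fell (-0.40 ± 0.08). The ERK phosphatase Dusp4 (0.83 ± 0.09) and Phlda1 (1.02 ± 0.15) rose, while the transcription factor Etv4 fell (-0.58 ± 0.07). Of 12 interferon response genes 1 was higher and 3 lower, beside 19.4% and 18.4% of all genes. The chemokine Cxcl10 had 7.40 and 7.25 in Mettl3 knockdown, against 6.21 and 5.99 in scramble (1.22 ± 0.14). The RNA sensor Ddx58 changed by -0.43 ± 0.09, the membrane protein Ifitm3 by -0.25 ± 0.06, a call lost without replicate 2 of the knockdown (-0.19, adjusted p = 0.0502), and Stat2 by -0.28 ± 0.08, a call lost without replicate 2 of scramble or without either knockdown array (adjusted p = 0.145, 0.089 and 0.0551).

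Targets of the stress-activated factor p53 were higher at 4 h. 15 of 21 rose and 0 fell, beside 19.4% and 18.4% of all genes, with a median of 0.59. Plk2, a kinase, had 8.77 and 8.67 in Mettl3 knockdown, against 7.27 and 7.29 in scramble (1.44 ± 0.10, adjusted p = 4.13e-07). The death receptor Tnfrsf10b had 10.91 and 10.94 in Mettl3 knockdown, against 9.90 and 9.81 in scramble (1.07 ± 0.07, adjusted p = 1.81e-07). Cdkn1a, the cell cycle inhibitor p21, had 9.34 and 9.11 in Mettl3 knockdown, against 8.46 and 8.23 in scramble (0.88 ± 0.12, adjusted p = 7.03e-05). In each of these 3 genes the knockdown arrays were the high ones. Trp53inp1 changed by 0.87 ± 0.05, Phlda3 by 0.94 ± 0.07 and Ccng1 by 0.62 ± 0.05.

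Of 19 apoptosis genes 9 rose and 0 fell, beside 19.4% and 18.4% of all genes. The rises were on both the killing and the protecting side. The initiator caspase gene Casp8 had 10.95 and 10.84 in Mettl3 knockdown, against 8.70 and 8.51 in scramble, 4.88-fold higher (2.29 ± 0.08, adjusted p = 1.47e-09), with no overlap. The killer proteins Bok (0.50 ± 0.05) and Pmaip1 (0.59 ± 0.11) and the apoptosome scaffold Apaf1 (0.44 ± 0.07) rose, and so did the protective Bcl2l1 (0.55 ± 0.08).

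Amino acid and unfolded protein stress genes were mostly lower, 15 of 25 against 3 higher (median -0.28), beside 18.4% and 19.4% of all genes. Asns, asparagine synthetase, had 11.14 and 11.09 in Mettl3 knockdown, against 11.64 and 11.60 in scramble (-0.50 ± 0.05, adjusted p = 8.6e-06). The serine pathway enzymes Psat1 (-0.54 ± 0.06) and Shmt2 (-0.52 ± 0.05) and the cationic amino acid transporter Slc7a3 (-0.55 ± 0.05) changed by similar amounts. Nupr1, a stress-induced chromatin protein, had 7.06 and 7.13 in Mettl3 knockdown, against 8.12 and 8.30 in scramble (-1.12 ± 0.13).

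Proliferation genes were slightly lower. Of 37 genes of DNA replication and mitosis 20 fell and 0 rose, beside 18.4% and 19.4% of all genes. Their median was -0.14. The checkpoint kinase gene Bub1b had 11.19 and 11.20 in Mettl3 knockdown, against 11.71 and 11.65 in scramble (-0.49 ± 0.05, adjusted p = 6.81e-06), and Cdc20, an activator of the anaphase-promoting complex, changed by -0.39 ± 0.05. The spindle motor gene Kif11 changed by -0.40 ± 0.05, topoisomerase Top2a by -0.35 ± 0.05 and Cenpf by -0.40 ± 0.06. The G1 list had 2 higher and 3 lower of 16, beside 19.4% and 18.4% of all genes. The cyclins Ccnd3 (-0.65 ± 0.07) and Ccnd2 (-0.31 ± 0.06) and the inhibitor Cdkn1b (-0.58 ± 0.12) fell, and Cdk6 rose by 0.20, a call lost without replicate 1 of scramble (0.18, adjusted p = 0.064) or with the long-lived transcripts set equal (0.12, adjusted p = 0.135).

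In the Myc family 1 of 10 rose and 3 fell, beside 19.4% and 18.4% of all genes. Myc itself had 8.44 and 8.41 in Mettl3 knockdown, against 8.70 and 8.76 in scramble and did not pass (-0.30 ± 0.14, adjusted p = 0.107). Of its antagonists Mxd4 rose (0.51 ± 0.08) and Mxi1 fell (-0.34 ± 0.07), as did the partner Mlx (-0.28 ± 0.05). Mnt changed by -0.29 ± 0.08 and lost its call without replicate 1 of scramble or replicate 2 of the knockdown (adjusted p = 0.0698 and 0.0862).

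The m6A machinery other than the target mostly changed by small amounts, the reader gene Igf2bp3 being the exception. Of 8 writer genes tested 3 rose and 1 fell, beside 19.4% and 18.4% of all genes, with a median of -0.01. The scaffold Virma had 10.63 and 10.59 in Mettl3 knockdown, against 10.32 and 10.29 in scramble (0.30 ± 0.05, adjusted p = 0.000585). Wtap, the subunit that locates the catalytic pair, had 9.25 and 9.15 in Mettl3 knockdown, against 8.95 and 8.95 in scramble (0.25 ± 0.06, adjusted p = 0.00642), a call lost without replicate 1 of the knockdown (0.20, adjusted p = 0.0642) or with the long-lived transcripts set equal (0.17, adjusted p = 0.0717). Cbll1 changed by 0.22 ± 0.08 and Mettl16, a separate methyltransferase, by -0.20 ± 0.05. The call of Cbll1 was lost without replicate 1 or 2 of scramble or replicate 1 of the knockdown (adjusted p = 0.188, 0.0879 and 0.258), and that of Mettl16 without replicate 2 of either group (adjusted p = 0.0802 for scramble and 0.0694 for the knockdown).

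Of 9 readers and demethylases 3 rose and 0 fell, beside 19.4% and 18.4% of all genes. Their median was 0.03, or -0.06 with the long-lived transcripts set equal. Igf2bp3, a reader that protects bound transcripts, had 11.02 and 11.01 in Mettl3 knockdown, against 9.92 and 9.97 in scramble, 2.1-fold higher (1.07 ± 0.05, adjusted p = 8.1e-09). The nuclear reader Ythdc1 had 11.26 and 11.24 in Mettl3 knockdown, against 10.87 and 10.87 in scramble (0.37 ± 0.04). The demethylase Alkbh5 changed by 0.17 ± 0.06, a call lost without any single one of the 4 arrays (adjusted p = 0.0552 to 0.163), and the cytoplasmic reader Ythdf1 did not pass (0.09 ± 0.06).

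The machinery of mRNA decay was more often lower, with 12 of 33 genes lower and 5 higher (median -0.09). Of all genes 18.4% were lower and 19.4% higher. With the long-lived transcripts set equal the counts of this list became 15 lower and 0 higher. Cnot10, a subunit of the CCR4-NOT deadenylase, had 10.19 and 10.20 in Mettl3 knockdown, against 10.57 and 10.57 in scramble (-0.38 ± 0.05, adjusted p = 9.71e-05). The decapping enzyme Dcp2 changed by -0.33 ± 0.05, its cofactor Pnrc2 by -0.54 ± 0.08, the exosome nuclease Exosc10 by -0.30 ± 0.05 and the nuclear exonuclease Xrn2 by -0.29 ± 0.05. All 5 were below their scramble arrays in both knockdown arrays, by less than 1.5-fold.

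Germline genes formed the list with the lowest median, -0.77, with 12 of 18 lower and 1 higher, beside 18.4% and 19.4% of all genes. Beside Sohlh2 and Morc1, Piwil2, an Argonaute protein of the piRNA pathway, had 8.15 and 8.17 in Mettl3 knockdown, against 9.22 and 9.32 in scramble (-1.11 ± 0.12, adjusted p = 1.87e-05). Its helicase partner Mov10l1 had 7.51 and 7.51 in Mettl3 knockdown, against 8.65 and 8.63 in scramble (-1.13 ± 0.11), and the ADP/ATP carrier gene Slc25a31 changed by -0.85 ± 0.07. Of 19 2-cell-like genes with a probe set of their own 9 were bright enough to be tested, and the 4 that fell were the Zscan4 genes given above. Beside 18.4% lower and 19.4% higher of all genes, histones of the replication-dependent class had 3 of 14 lower and 0 higher. They were H2ac1 (-0.55 ± 0.07), H2bc18 (-0.56 ± 0.12) and H1f2 (-0.47 ± 0.16), the last losing its call without any single one of the 4 arrays (adjusted p = 0.0587 to 0.163), and their sequences are close to those of other copies.

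Long-lived and ribosomal transcripts gave medians near 0. Of 32 long-lived metabolic and cytoskeletal genes 4 rose and 4 fell (median 0.01), beside 19.4% and 18.4% of all genes. The cytoplasmic actin gene Actg1 (0.43 ± 0.06), the tubulin gene Tuba1a (0.48 ± 0.07) and the glycolytic enzyme gene Tpi1 (0.26 ± 0.05) rose. Actb (0.09 ± 0.08) and Gapdh (0.06 ± 0.04) did not pass. Of 49 ribosomal protein genes 2 rose and 2 fell, again beside 19.4% and 18.4% of all genes. Their median of 0.00 became -0.08 with the long-lived transcripts set equal. In all, 10 of the 29 lists had most of their tested members passing in 1 direction. The pluripotency, germline, replication and stress lists did so downward, and the other 6 upward. Because the lists were chosen with earlier results of these data known, these counts are no independent support for a direction.

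**Figure D2:**
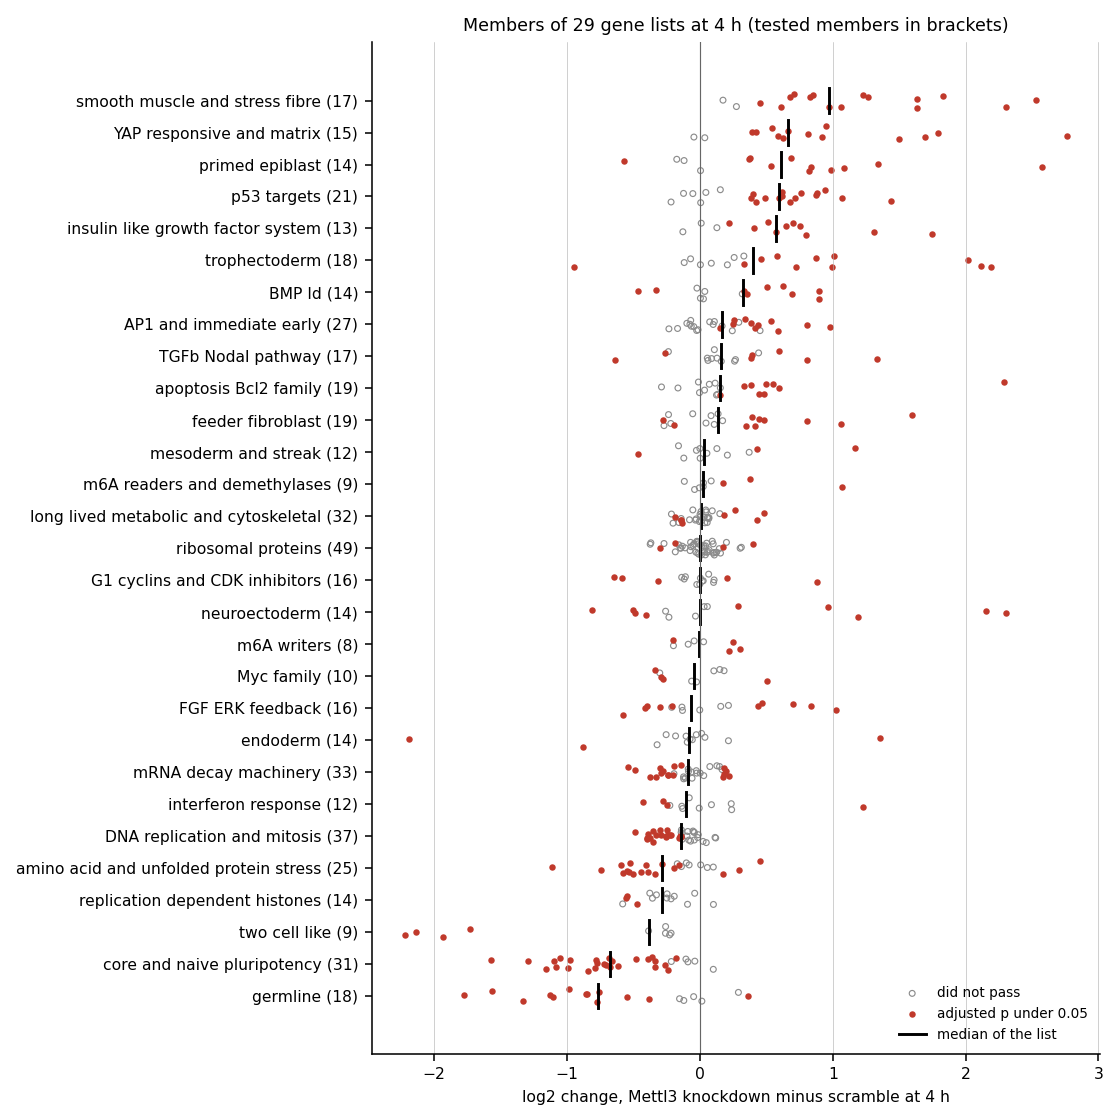
Log2 change at 4 h, Mettl3 knockdown minus scramble, of every tested member of the 29 gene lists, ordered by median from highest at the top. Filled points passed at an adjusted p under 0.05, open points did not, and black bars are medians, which run from 0.97 for smooth muscle and stress fibre genes to -0.77 for germline genes.

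Whether the effect at 4 h was that already present at 0 h was asked with arrays the comparisons do not share. Over the 14787 genes the effects at 4 h and 0 h gave r = 0.89 and rho = 0.795, a description across genes that are not independent of each other. At 0 h, 2850 genes were higher (19.3%) and 2744 lower (18.6%). Of the genes higher at 4 h, 2252 were higher at 0 h, which is 78.7% of the 4 h list and 79.0% of the 0 h list. Of those lower at 4 h, 2043 were lower at 0 h, 74.9% of the 4 h list and 74.5% of the 0 h list, and 7 genes passed in opposite directions. Of 323 genes at least 2-fold higher at 0 h (2.18%), 319 were higher at 4 h, with a median change of 1.27 at 4 h and 1.31 at 0 h. Of 120 genes at least 2-fold lower at 0 h (0.812%), 118 were lower at 4 h, with a median change of -1.09 at 4 h and -1.20 at 0 h.

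**Figure D3:**
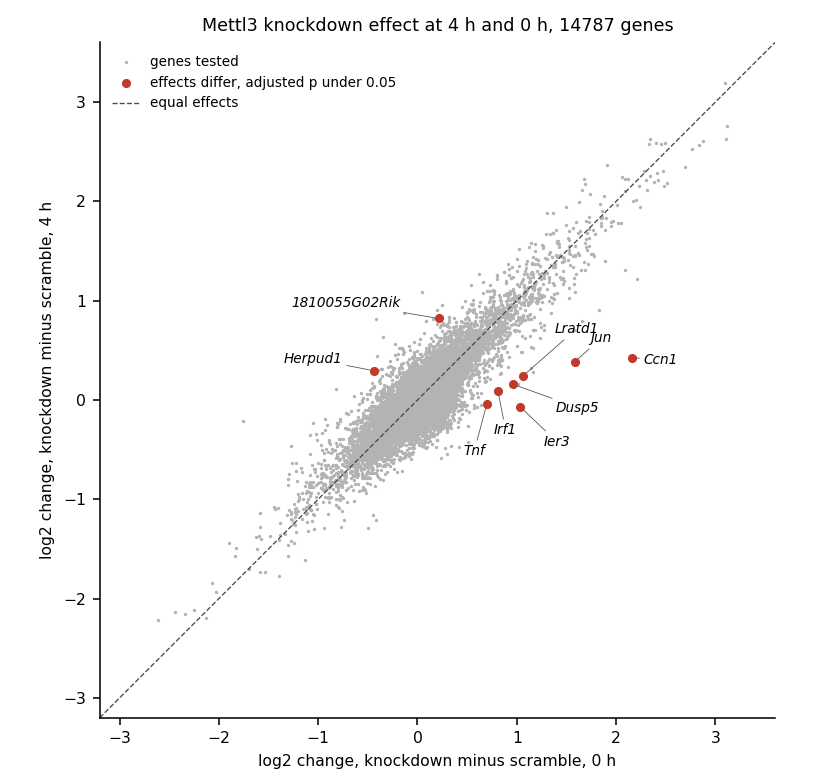
Log2 change of each of 14787 genes, Mettl3 knockdown minus scramble, at 4 h (vertical) against 0 h (horizontal), with equal effects on the dashed line. The cloud follows the line (r = 0.89), and the 9 genes in red are those whose effects differed, 7 of them below the line and 2 above it.

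The difference between the effects passed for 9 genes, 0.0609% of those tested: 2 with a higher effect at 4 h (0.0135%) and 7 with a lower one (0.0473%). At an unadjusted p under 0.05 the counts were 570 and 682. The 7 include early response and signalling genes whose rise at 0 h was smaller or absent at 4 h. Ccn1, a matricellular protein that growth factors induce, had 8.34 and 8.24 in Mettl3 knockdown, against 7.90 and 7.83 in scramble at 4 h. At 0 h it had 11.40 and 11.57 in Mettl3 knockdown, against 9.48 and 9.18 in scramble. The effect at 4 h, 0.43 ± 0.09, was below that at 0 h, 2.16 ± 0.09, by 1.73 on the log2 scale (adjusted p = 0.00023), and signals of both treatments were lower at 4 h than at 0 h.

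Jun, which encodes a subunit of the factor AP-1, had 8.62 and 8.64 in Mettl3 knockdown, against 8.37 and 8.11 in scramble at 4 h. The values at 0 h were 9.59 and 9.71 in Mettl3 knockdown, against 8.08 and 8.05 in scramble. Here the scramble arrays stayed near their 0 h level while the knockdown arrays were lower at 4 h, a difference in effect of -1.20 ± 0.13 (adjusted p = 0.00523). Ier3, an immediate early gene of cell survival, had 7.53 and 7.55 in Mettl3 knockdown, against 7.61 and 7.60 in scramble at 4 h, a change that did not pass (-0.07 ± 0.06, adjusted p = 0.442). At 0 h it had 9.15 and 9.12 in Mettl3 knockdown, against 8.19 and 8.01 in scramble, and the difference in effect was -1.10 ± 0.09 (adjusted p = 0.00028).

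Dusp5, a nuclear ERK phosphatase, had 7.88 and 7.88 in Mettl3 knockdown, against 7.74 and 7.71 in scramble at 4 h. At 0 h it had 9.97 and 9.997 in Mettl3 knockdown, against 9.08 and 8.96 in scramble (difference in effect -0.81 ± 0.11, adjusted p = 0.0208). The cytokine gene Tnf had 6.18 and 6.32 in Mettl3 knockdown, against 6.29 and 6.3 in scramble at 4 h. At 0 h it had 6.81 and 6.66 in Mettl3 knockdown, against 6.08 and 5.996 in scramble (difference in effect -0.74 ± 0.11, adjusted p = 0.022). Irf1, an interferon regulatory factor, had 6.55 and 6.49 in Mettl3 knockdown, against 6.42 and 6.46 in scramble at 4 h. Its values were 7.84 and 7.94 in Mettl3 knockdown, against 6.995 and 7.16 in scramble at 0 h (difference in effect -0.73 ± 0.09, adjusted p = 0.0116). In these 3 genes the knockdown arrays stood clear of scramble at 0 h and within 0.2 of it at 4 h, and none passed at 4 h (adjusted p = 0.148 for Dusp5, 0.689 for Tnf and 0.332 for Irf1). Lratd1 had 7.25 and 7.25 in Mettl3 knockdown, against 7.002 and 7.004 in scramble at 4 h. Its values at 0 h were 7.53 and 7.36 in Mettl3 knockdown, against 6.26 and 6.497 in scramble, so that scramble was higher at 4 h than at 0 h and the knockdown lower (difference in effect -0.82 ± 0.12, adjusted p = 0.0208). Irf1 and the gene 1810055G02Rik were outside the rule for named genes and are given because the difference passed.

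The 2 genes with a higher effect at 4 h changed mainly in scramble. Herpud1, a gene of the unfolded protein response and of endoplasmic reticulum degradation, had 8.52 and 8.47 in Mettl3 knockdown, against 8.26 and 8.15 in scramble at 4 h. At 0 h it had 8.75 and 8.78 in Mettl3 knockdown, against 9.23 and 9.18 in scramble. The knockdown arrays were thus above scramble at 4 h (0.30 ± 0.06, adjusted p = 0.00268) and below it at 0 h (-0.44 ± 0.06, adjusted p = 0.000143), with a difference of 0.74 ± 0.09 (adjusted p = 0.00955). 1810055G02Rik had 10.13 and 10.06 in Mettl3 knockdown, against 9.30 and 9.25 in scramble at 4 h. The values at 0 h were 10.25 and 10.22 in Mettl3 knockdown, against 9.99 and 10.06 in scramble (0.61 ± 0.08, adjusted p = 0.0208).

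These calls rest on few arrays. With only the 8 arrays of the 4 groups in the fit, 0 genes passed in either direction, and Ccn1, Ier3 and Jun had an adjusted p of 0.0587, 0.0587 and 0.0789. The same 3 kept their call when any single array was left out, and each of the other 6 lost it for at least 1 array. The number with a lower effect was 3 when any single one of the 4 arrays at 4 h, or scramble replicate 1 at 0 h, was left out. The number with a higher effect was 0 when any of these was left out: scramble replicate 1 at 0 h or replicate 2 at 4 h, and knockdown replicate 1 at 0 h or at 4 h. It was 1 when scramble replicate 2 at 0 h or knockdown replicate 2 at 4 h was left out.

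**Figure D4:**
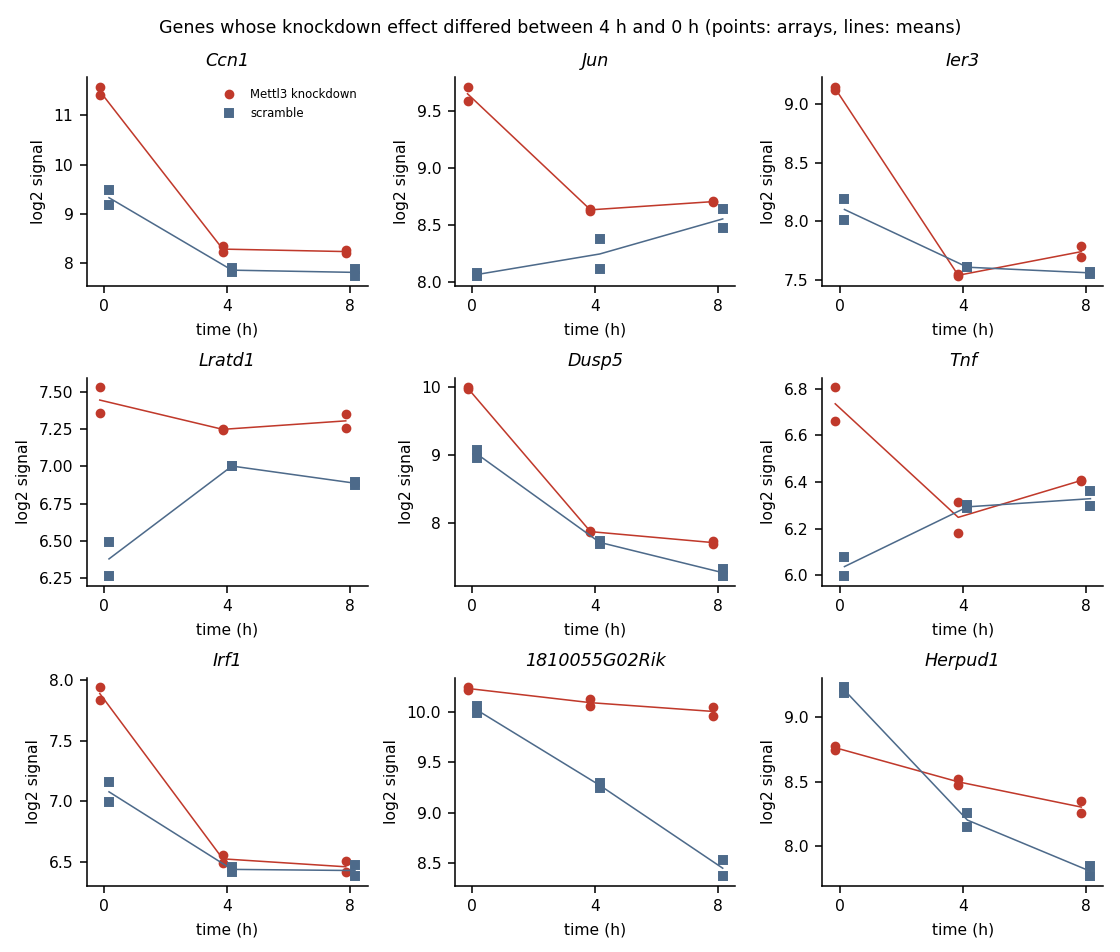
Log2 signal of every array of Mettl3 knockdown (circles) and scramble (squares) at 0 h, 4 h and 8 h for the 9 genes whose effect at 4 h differed from that at 0 h, with lines through the means. Ccn1, Dusp5, Ier3 and Irf1 are high in both treatments at 0 h and higher in the knockdown, whereas 1810055G02Rik and Herpud1 are higher in the knockdown at 4 h and 8 h, Herpud1 is lower in it at 0 h, and scramble is lower at each later time in both genes.

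The promoters of the 3 genes with a difference of at least 2-fold (0.0203% of those tested) are shown because their rise over scramble was smaller at 4 h by the most. Each window runs from 250 bases before to 50 bases after the gene start, from RefSeq on the build GRCm38.p6, in the sense of the gene. Capitals mark matches, on either strand, to 5 motifs searched without regard to overlap: TGACG of CREB and ATF factors, GGAATG of TEAD factors, CCAAT of NF-Y, the TATA box TATAAA and the CArG box of serum response factor. Over all 32851 windows of this length these motifs were found in 20.8%, 14.7%, 37.4%, 13.6% and 1.63%.
Ccn1, chr3:145649936-145650235, minus strand: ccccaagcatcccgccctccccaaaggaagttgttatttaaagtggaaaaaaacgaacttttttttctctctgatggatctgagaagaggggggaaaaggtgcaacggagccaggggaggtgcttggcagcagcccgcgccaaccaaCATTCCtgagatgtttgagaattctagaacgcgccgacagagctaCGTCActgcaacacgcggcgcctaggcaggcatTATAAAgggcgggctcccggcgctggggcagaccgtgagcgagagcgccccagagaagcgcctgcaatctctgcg
Jun, chr4:95052173-95052472, minus strand: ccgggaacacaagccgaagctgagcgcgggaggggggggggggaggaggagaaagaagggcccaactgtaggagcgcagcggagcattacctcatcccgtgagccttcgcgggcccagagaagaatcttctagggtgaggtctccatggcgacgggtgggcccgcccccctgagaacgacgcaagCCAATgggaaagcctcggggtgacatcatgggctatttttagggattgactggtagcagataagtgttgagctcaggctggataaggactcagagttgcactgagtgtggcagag
Ier3, chr17:35821463-35821762, plus strand: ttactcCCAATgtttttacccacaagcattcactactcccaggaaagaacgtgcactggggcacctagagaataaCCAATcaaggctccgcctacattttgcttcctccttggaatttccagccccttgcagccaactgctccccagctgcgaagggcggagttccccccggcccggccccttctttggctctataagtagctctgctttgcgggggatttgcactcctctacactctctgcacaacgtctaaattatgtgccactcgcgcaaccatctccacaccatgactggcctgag

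The Ccn1 window held GGAATG on the other strand from base 148 to 153, TGACG on the other strand from base 193 to 197 and TATAAA from base 226 to 231. That of Jun held CCAAT from base 186 to 190, and that of Ier3 held CCAAT from base 7 to 11 and from base 76 to 80. Of all 9 genes, 4 had TGACG in a window, 2 had GGAATG, 6 had CCAAT, 2 had TATAAA and 2 had the CArG box. These counts are of genes, while the percentages above are of windows. A match describes letters in the window and no binding.

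Fewer immediate early genes were higher at 4 h than at 0 h. At 4 h 11 of 27 were higher and 0 lower (median 0.17), and at 0 h 17 were higher and 1 lower (median 0.43). Of all genes 19.4% were higher and 18.4% lower at 4 h, and 19.3% and 18.6% at 0 h. In the scramble arrays themselves 15 of the 27 were lower at 4 h than at 0 h, beside 13.5% of all genes. Those still higher at 4 h included Fosl2, an AP-1 subunit, at 7.95 and 7.86 in Mettl3 knockdown, against 6.83 and 7.02 in scramble (0.98 ± 0.10, adjusted p = 6.27e-06). The ERK phosphatase Dusp1 had 8.44 and 8.38 in Mettl3 knockdown, against 7.62 and 7.59 in scramble (0.80 ± 0.08, adjusted p = 7.06e-06). The zinc finger factor Egr1 changed by 0.59 ± 0.10 and the stress-induced factor Atf3 by 0.41 ± 0.09. The difference between times passed for 2 list members, Jun and Ier3.

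The pluripotency, p53 and cytoskeletal lists had close counts at both times. The pluripotency list had 26 lower at 4 h and 27 at 0 h, the p53 list 15 higher at 4 h and 14 at 0 h, and the cytoskeletal list 15 at both. No member of these 3 lists passed for a difference. Counts of genes passing moved more in the endoderm and mRNA decay lists, where no member passed for a difference either. Endoderm genes had 1 higher and 2 lower at 4 h, and 5 higher and 2 lower at 0 h. Genes of mRNA decay had 5 higher and 12 lower at 4 h, and 1 higher and 9 lower at 0 h. Of all genes 19.4% were higher and 18.4% lower at 4 h, and 19.3% and 18.6% at 0 h. The replication-dependent histones had a median change of -2.35 between 4 h and 0 h in scramble, while their knockdown effect had a median of -0.29 at 4 h and -0.23 at 0 h.

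Transcripts that were at least 2-fold lower at 4 h than at 0 h in the Mettl14 knockdown arrays, which take no part in the comparison, numbered 279 (1.89%). In Mettl3 knockdown at 4 h 45 of them were higher than in scramble (16.1%) and 39 lower (14%), with a median of -0.04, beside 19.4% and 18.4% of all genes. At 0 h 44 were higher and 50 lower. The median of the difference between the effects at 4 h and 0 h over these genes was 0.03, beside -0.01 over all genes.

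The effect at 8 h differed from that at 4 h for 6 genes, all with a higher effect at 8 h (0.0406%), and for 0 genes with a lower one (0.0%) in limma, where 842 and 340 had an unadjusted p under 0.05. In each of the 6 scramble was lower at 8 h than at 4 h, by more than Mettl3 knockdown was. Traf4, an adaptor of the TNF receptor family, had 10.92 and 10.84 in Mettl3 knockdown, against 9.32 and 9.22 in scramble at 8 h. At 4 h it had 10.99 and 10.99 in Mettl3 knockdown, against 9.89 and 9.93 in scramble (0.53 ± 0.07, adjusted p = 0.0345). Eif1a, a translation initiation factor, had 10.11 and 10.07 in Mettl3 knockdown, against 9.34 and 9.41 in scramble at 8 h. At 4 h it had 10.38 and 10.34 in Mettl3 knockdown, against 10.31 and 10.25 in scramble (0.63 ± 0.09, adjusted p = 0.0474). The kinase gene Pskh1 had a difference of 0.52 ± 0.07 (adjusted p = 0.0345). 1810055G02Rik (0.74 ± 0.08, adjusted p = 0.02), 0610009B22Rik (0.73 ± 0.11, adjusted p = 0.0474) and 2310022A10Rik (0.56 ± 0.07, adjusted p = 0.0328) were chosen after their values were seen, because they passed.

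This count depends on single arrays. Scramble at 8 h moved it most: it was 83 with replicate 1 left out and 1 with replicate 2 left out. It was 0 without any single one of the 4 arrays at 4 h, 0 without either knockdown array at 8 h, and 0 with only the 8 arrays of the 4 groups. With no filter on dim genes it was 0 (adjusted p = 0.089 to 0.165 for the 6 genes), and with a replicate block 1810055G02Rik alone passed (adjusted p = 0.0617 to 0.0966 for the other 5). All 15 leading rises and all 15 leading falls passed in their direction at 8 h as well, from 2.24 to 3.17 and from -2.41 to -1.21, where 23.8% of all genes were higher and 19.0% lower.

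Mettl3 knockdown was set against Mettl14 knockdown at the same time. In Mettl3 knockdown 426 genes were higher than in Mettl14 knockdown (2.88%) and 477 lower (3.23%), of which 3 (0.0203%) and 9 (0.0609%) differed at least 2-fold. Without any single one of these 4 arrays the counts were 130 to 165 higher and 166 to 279 lower, and with only these 4 arrays in the fit 167 and 211. The 12 genes named by size kept their call under each alternative run. The highest was Mettl14 itself, at 9.01 and 9.01 in Mettl3 knockdown and 7.01 and 6.45 in Mettl14 knockdown (2.28 ± 0.13, adjusted p = 3.92e-06). The shared Mettl3 and Tox4 probe set lay at 8.53 and 8.12 in Mettl3 knockdown and 10.48 and 10.34 in Mettl14 knockdown. In scramble it lay at 10.97 and 10.99, above both, and in Mettl14 knockdown it was at 67.3% of scramble.

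Several of the genes higher in Mettl3 knockdown were near scramble there and lower in Mettl14 knockdown. Suz12, a subunit of Polycomb repressive complex 2, had 11.30 and 11.36 in Mettl3 knockdown, 10.24 and 10.32 in Mettl14 knockdown and 11.46 and 11.42 in scramble (1.05 ± 0.06, adjusted p = 3.92e-06 between the knockdowns). Zcchc10 had 9.85 and 9.78 in Mettl3 knockdown, 8.56 and 8.52 in Mettl14 knockdown and 9.76 and 9.77 in scramble (1.28 ± 0.08, adjusted p = 4.68e-06). The RNA-binding gene Caprin2 differed by 0.98 ± 0.09. Dmwd was above scramble in Mettl3 knockdown (0.36 ± 0.09) and below it in Mettl14 knockdown (-0.60 ± 0.09). Klhl4, of the Kelch family, rose in both, by 1.77 in Mettl3 knockdown and 0.80 in Mettl14 knockdown (0.96 ± 0.14, adjusted p = 0.00185 between them).

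Of the genes lower in Mettl3 knockdown, some rose less there and some were near scramble in Mettl14 knockdown. Apob, the apolipoprotein of lipid-carrying particles, had 7.47 and 7.45 in Mettl3 knockdown, 8.91 and 8.71 in Mettl14 knockdown and 6.47 and 6.69 in scramble (-1.35 ± 0.09, adjusted p = 7.35e-06). The secreted peptide gene Apln had changes against scramble of 0.57 ± 0.14 in Mettl3 knockdown and 1.76 ± 0.14 in Mettl14 knockdown (-1.19 ± 0.14, adjusted p = 0.000472). Both knockdowns were above scramble in these 2 genes, Mettl14 knockdown by more. Serpinb9b, an intracellular protease inhibitor, had 8.19 and 8.199 in Mettl3 knockdown, 9.56 and 9.32 in Mettl14 knockdown and 9.43 and 9.39 in scramble (-1.24 ± 0.11, adjusted p = 8.34e-05). Fmr1nb (-1.19 ± 0.12, adjusted p = 0.000238) and Efhc2 (-1.08 ± 0.14, adjusted p = 0.000689) likewise lay near scramble in Mettl14 knockdown, and Cdca4 (-1.10 ± 0.11, adjusted p = 0.00011) rose there by 0.95.

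**Figure D5:**
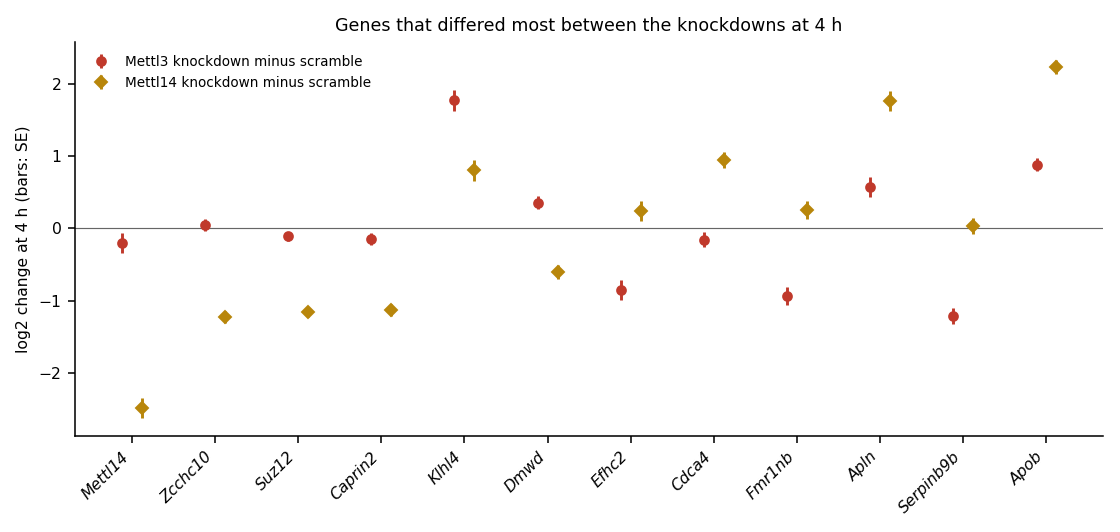
Log2 change at 4 h against the same scramble arrays in Mettl3 knockdown (circles) and in Mettl14 knockdown (diamonds) for the 12 named genes that differed between the knockdowns, with bars of 1 standard error from limma. Mettl14, Zcchc10, Suz12 and Caprin2 are near 0 in Mettl3 knockdown and below -1 in Mettl14 knockdown, while Apob and Apln are higher in both and highest in Mettl14 knockdown.

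Among the list genes, those of pluripotency accounted for 10 of the genes lower and 2 of the genes higher in Mettl3 than in Mettl14 knockdown, of 31 tested. Of all genes 3.23% were lower and 2.88% higher. Stat3 had 10.14 and 10.09 in Mettl3 knockdown, 10.98 and 10.98 in Mettl14 knockdown and 11.41 and 11.41 in scramble, a difference between the knockdowns of -0.86 ± 0.06 (adjusted p = 4.68e-06). Tet1 differed by -0.36 ± 0.04 (adjusted p = 0.000395) and Nanog by -0.21 ± 0.05 (adjusted p = 0.0231), while Esrrb did not pass (-0.17 ± 0.08, adjusted p = 0.298). Stmn2 fell in Mettl3 knockdown (-0.81 ± 0.05) and did not pass in Mettl14 knockdown (0.13 ± 0.05), and the difference passed (-0.94 ± 0.05, adjusted p = 3.92e-06). The Nodal inhibitor Lefty2 (0.82 ± 0.10, adjusted p = 0.00051) and the cadherin gene Cdh2 (0.60 ± 0.06, adjusted p = 0.000129) were higher in Mettl3 knockdown. The 2 comparisons with scramble share their scramble arrays, so the values stand side by side, and the tests are those between the knockdowns.

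The repeat set at 0 h, none of whose arrays enter the 4 h comparison, gave smaller median changes of the leading genes. These genes were chosen on their 4 h values. The 15 rises had a median of 1.27 there, against 2.58 at 4 h. The 15 falls differed less, with a median of -1.45 there, against -1.73 at 4 h. Over the 14787 genes the effect in the repeat set and that at 4 h gave r = 0.735 and rho = 0.658. There 2642 genes were higher (17.9%) and 2571 lower (17.4%). Shared with the 4 h comparison were 1734 higher genes, 60.6% of the 4 h list and 65.6% of the repeat list, and 1572 lower genes, 57.6% and 61.1% of those lists, while 114 passed in opposite directions. Pluripotency genes were lower in 27 and higher in 1 of 31 (median -0.44), cytoskeletal genes were higher in 13 of 17 (median 0.35) and the insulin-like growth factor system in 12 of 13 (median 0.49).

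Fewer p53 targets and stress genes passed in their 4 h direction there. Of 21 p53 targets 3 were higher and 10 lower in the repeat set (median -0.14), beside 15 and 0 at 4 h. Cdkn1a changed by -0.04 in the repeat set (adjusted p = 0.563), Plk2 by 0.06 (adjusted p = 0.468) and Trp53inp1 by -0.38 (adjusted p = 0.000657). Of 25 stress genes 4 were higher and 2 lower (median 0.00), with Asns at -0.03 and Nupr1 at 0.05. Of all genes 17.9% were higher and 17.4% lower in the repeat set. A test of the difference between the 4 h comparison and the repeat set was not run.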

How the data were processed

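The deposited values are log2 signals per probe set of Affymetrix Mouse Gene 2.0 ST arrays, made by the authors with RMA in oligo from poly(A) RNA, per the submitters' processing notes and the labels' protocols. The notes give no version and do not say whether all 26 arrays were processed together. RMA corrects background, equalises the arrays' distributions and gives 1 value per probe set.

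Of 41345 probe sets, 23521 were listed with 1 gene symbol, 1814 with several, and 16010 were not in the probe table used here. A gene took its probe set of highest mean, which gave 22180 genes, and the 7393 with the lowest mean over the 26 arrays (a fraction of 0.333) were left out. Near-identical copies, such as Zscan4 genes, histones and ribosomal proteins, share probes and are uncertain singly.

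Comparisons used lmFit and eBayes of limma 3.58.1 under R 4.3.3, two-sided, in a fit over the 18 time course arrays with 9 residual degrees of freedom. The targeted probe sets came from the same fit over 41345 probe sets and the repeat set from a fit of its own. The script was tested on simulated data. Named genes were the 15 largest rises and 15 largest falls that passed and had no overlap between knockdown and scramble arrays. For the other comparisons the 6 largest of each were named. From each list the 5 members of smallest adjusted p were taken, and 11 genes were named in every comparison. Unnamed and predicted genes were outside this rule. The members and the 29 lists were chosen with earlier results of these data known. Deviations of samples with the same replicate number correlated at -0.436 to 0.335 over the pairs of groups, in both directions, so the numbers were not taken as pairs. Alternatives covered the filter, the mean of probe sets, trend and robust options of eBayes, renormalization, equal long-lived transcripts, the arrays fitted, a replicate block and leaving out each array.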

Additional observations from a re-analysis of the deposited data

Results flagged for a closer look

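The knockdown effect differed between times by a test of the difference itself for 2 genes higher and 7 genes lower at 4 h than at 0 h. On the log2 scale the lower ones were Ccn1 (-1.73), Jun (-1.20), Ier3 (-1.10), Lratd1 (-0.82), Dusp5 (-0.81), Tnf (-0.74) and Irf1 (-0.73). The higher ones were Herpud1 (0.74) and 1810055G02Rik (0.61). Between 8 h and 4 h the effect was higher for 6 genes, namely 1810055G02Rik (0.74), 0610009B22Rik (0.73), Eif1a (0.63), 2310022A10Rik (0.56), Traf4 (0.53) and Pskh1 (0.52).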

How the results depend on the processing

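At 4 h the counts of genes higher and lower in Mettl3 knockdown than in scramble stayed within 1.5 times under each alternative run, and the direction of the targeted probe set held. Of 170 genes named in that comparison, 138 kept direction and side of the threshold in every alternative. Gapdh turned to -0.027 with the long-lived transcripts set equal, and Rps26 to -0.064 with the mean of its probe sets, neither passing there (adjusted p = 0.75 and 0.817). The count of lists with most members passing 1 way, 10, was 7 to 9 without 1 array. For the effect at 4 h minus that at 0 h, the genes higher (2) became 15 with a fraction of 0.5 left out by mean signal, 25 with trend and robust, 4 after renewed quantile normalization, 6 with the long-lived transcripts set equal, 29 over all 26 arrays, 0 over only the arrays compared and 0 to 3 without 1 array. The genes lower (7) became 25 with trend and robust, 14 after renewed normalization, 27 over all 26 arrays, 0 over only the arrays compared and 3 to 7 without 1 array. For the effect at 8 h minus that at 4 h, the genes higher (6) became 0 with no filter, 10 with a fraction of 0.5 left out, 48 with trend and robust, 1 after renewed normalization, 20 with the long-lived transcripts set equal, 56 over all 26 arrays, 0 over only the arrays compared and 0 to 83 without 1 array. The genes lower (0) became 6 with trend and robust, 8 over all 26 arrays and 0 to 1 without 1 array. Between Mettl3 and Mettl14 knockdown, the genes higher (426) and lower (477) became 245 and 307 with no filter, 694 and 749 over all 26 arrays, and 167 and 211 over only the arrays compared. Without 1 array they were 130 to 165 and 166 to 279. With a replicate block the counts were 2843 higher and 2685 lower at 4 h, 3 and 7 for 4 h minus 0 h, 1 and 0 for 8 h minus 4 h, and 400 and 460 between the knockdowns. Whether the numbers pair the samples is not given by the labels, and the correlation for the 2 groups at 4 h was 0.11. Fits over fewer arrays have fewer residual degrees of freedom, and the cause of the other shifts was not tested. With 1 array of a group left out, the remaining one is assumed to vary like the other groups. Precision is limited by 2 arrays per group, and dim genes by their signal over background.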
